A study of Mus musculus with 6 samples.

Results

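The genes described here encode the core machinery of the G1 phase of the cell cycle in HOXA9-immortalized granulocyte-macrophage progenitors (iGMPs). They are the D-type cyclin genes Ccnd1, Ccnd2 and Ccnd3, the cyclin-dependent kinase (CDK) genes Cdk4, Cdk6 and Cdk2, the CDK inhibitor genes Cdkn1b, Cdkn2c and Cdkn2d, and the pocket protein gene Rb1. These 10 genes were picked by symbol from the 34199 genes counted in each library, and all 10 were among the 12460 genes that passed the filter on low counts.

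iGMPs are mouse bone marrow cells of strain C57Bl/6 that carry a fusion of HOXA9 with the G400V mutant estrogen receptor and a GFP reporter driven by the Lysozyme promoter (Lys-GFP-ER-HoxA9 cells). Estradiol (150 ng/ml) keeps the fusion active and, together with stem cell factor, holds the cells in a self-renewing progenitor state. RNA-seq was performed after 24 h in 3 groups of 2 libraries. CAF-1 OFF cells received 500 µM IPTG, which switches on a lentiviral short hairpin RNA against Chaf1b, which encodes part of the CAF-1 histone chaperone. Control cells also received IPTG. HOXA9 OFF cells were washed with PBS and grown without estradiol, which inactivates the fusion, whereas the other groups kept estradiol. The hairpin lines of the study were clonal, and the labels name no clone. They do not give the IPTG dose of the control or say whether HOXA9 OFF cells received IPTG. Clone and IPTG therefore cannot be told apart from estradiol withdrawal in HOXA9 OFF against control. Clone likewise cannot be told apart from Chaf1b knockdown in CAF-1 OFF against control, nor from the treatments in CAF-1 OFF against HOXA9 OFF. The labels do not say whether the 2 libraries of a group came from separate cultures, so p-values may measure only technical spread, and cover only the spread between these libraries.

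D-type cyclins are made in response to growth factors and activate CDK4 and CDK6 in G1. The active kinases phosphorylate the RB protein, which then releases E2F transcription factors, and cyclin E with CDK2 completes this step before S phase. INK4 proteins, among them the products of Cdkn2c (p18) and Cdkn2d (p19), bind CDK4 and CDK6, whereas p27, encoded by Cdkn1b, acts mainly on CDK2 complexes. In myeloid progenitors this machinery is wound down as cells mature and leave the cycle.

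Between 16773560 and 25170898 reads were assigned to genes per library, where 3 counts equal 0.119 to 0.179 CPM. CPM is the count scaled to a common library size, here after TMM scaling of the libraries, which evens out differences in RNA makeup, and levels are given as mean ± SD of 2 libraries. Chaf1b, the targeted gene, stood at 97.5 ± 10.7 CPM in control and was reduced to 14.9 ± 4.01 CPM in the CAF-1 OFF cells (log2 fold change -2.71 ± 0.20 SE, edgeR quasi-likelihood FDR 0.0198). It was also lower in HOXA9 OFF than in control, by 1.55-fold (edgeR FDR 0.0396). All 10 progenitor markers examined passed the filter in the labelled progenitors, with a summed level of 11800 to 17500 CPM per library, although Flt3 stood at 4.24 CPM in HOXA9 OFF against 283 CPM in control. Markers of maturing neutrophils summed to 861 to 1330 CPM in HOXA9 OFF, 449 to 723 CPM in CAF-1 OFF, and 114 to 132 CPM in control. Mmp8, a collagenase gene, made up 332 and 630 CPM of the CAF-1 OFF sums.

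Against control, 6 of the 10 G1 genes were called in HOXA9 OFF at 24 h, beside 22% of all genes. In HOXA9 OFF, Ccnd1, Ccnd2 and Cdk4 fell and Ccnd3, Cdkn2d and Rb1 rose against control. Of these 6 genes, only Ccnd2 and Ccnd3 were called in every alternative fit at the same cutoffs. In CAF-1 OFF no member passed the edgeR quasi-likelihood test. The largest differences were those of Cdkn2c and Ccnd3, which were 1.69-fold and 1.68-fold above control. DESeq2 and the edgeR exact test called both genes, beside 191 and 243 of all genes. Set directly against each other, the conditions differed at Ccnd2, which was 3.07-fold higher in CAF-1 OFF.

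A call required a 1.5-fold change or more together with a false discovery rate (FDR) under 0.05, adjusted over all 12460 genes tested by edgeR. CAF-1 OFF against control had 0 of the 10 members called, where 0.0321% of all genes were called (0.0241% higher and 0.00803% lower). At an unadjusted p under 0.05 there were 3 members, against 10.7% of all genes. HOXA9 OFF against control had 6 members called, 3 higher and 3 lower, where 22% of all genes were called (13% higher and 8.97% lower). CAF-1 OFF against HOXA9 OFF had 1 member called, where 22.1% of all genes were called (9.56% higher in CAF-1 OFF and 12.6% lower). The median log2 fold change of the members was 0.22, 0.16 and 0.17 in the 3 comparisons, against medians of -0.004, -0.003 and 0.001 over all genes. The first and the second comparison share their control libraries, so their values are given side by side.

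**Figure D1:**
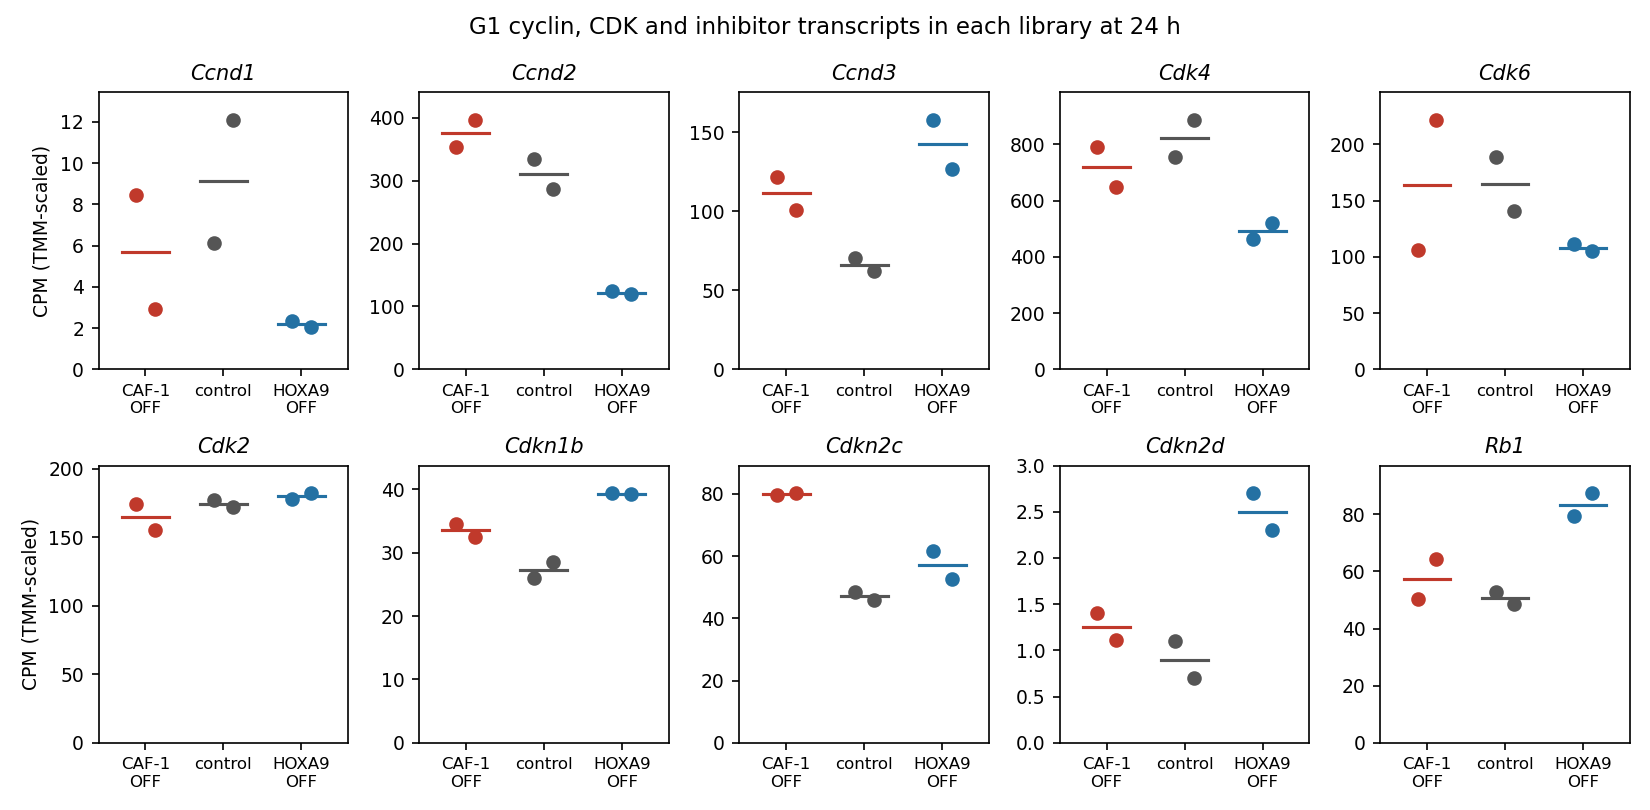
Each panel plots 1 gene, with TMM-scaled CPM on a linear axis from 0 and the 3 groups along the horizontal axis. Points are libraries and bars are the means of 2 libraries. Ccnd2 sits at 120 to 124 CPM in HOXA9 OFF and at 286 CPM or more in the other 4 libraries, whereas Ccnd3 is lowest in control. The Ccnd1 and Cdk6 points of CAF-1 OFF lie far apart.

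**Figure D2:**
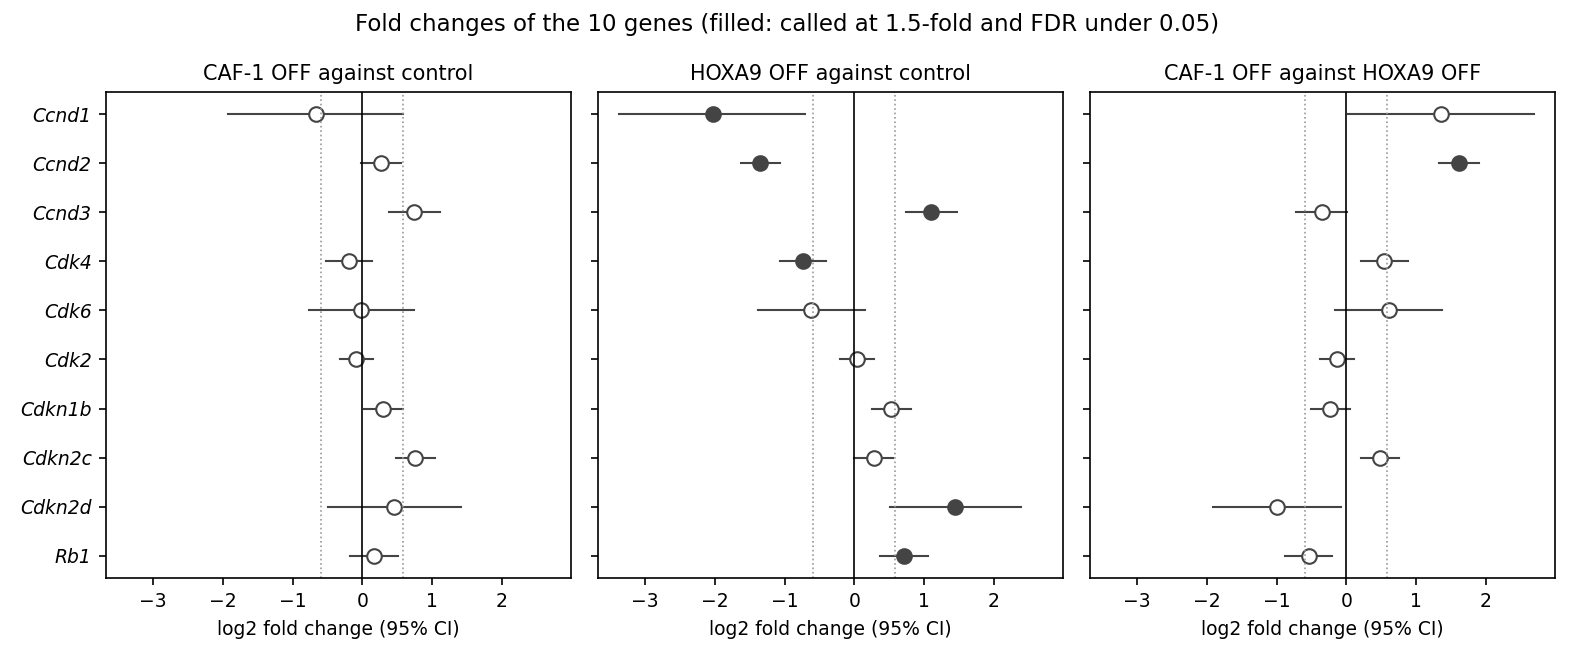
Log2 fold changes of the 10 genes in the 3 comparisons (horizontal axis), with bars for the 95% confidence interval of the edgeR fit and dotted lines at a 1.5-fold change. Filled points were called. The panel of HOXA9 OFF against control holds 6 filled points, that of CAF-1 OFF against HOXA9 OFF holds 1 (Ccnd2) and that of CAF-1 OFF against control holds 0.

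Among the members, Ccnd1 and Ccnd2 had the widest ranges of group means, at 1.92 and 1.62 on the log2 CPM scale. Cdkn2d followed at 1.41 and Ccnd3 at 1.1. Ccnd2 (chr6:127075797-127101066, minus strand, NCBIM37, the assembly named mm9) had 354 and 397 CPM in the CAF-1 OFF libraries, 335 and 286 CPM in control, and 124 and 120 CPM in HOXA9 OFF. Both HOXA9 OFF libraries lay far below the other 4, and both CAF-1 OFF libraries lay above control. Ccnd2 fell 2.54-fold in HOXA9 OFF against control (log2 fold change -1.35 ± 0.12 SE, edgeR FDR 0.000909). Its difference of 0.27 ± 0.12 in CAF-1 OFF against control did not pass (edgeR FDR 0.474). CAF-1 OFF exceeded HOXA9 OFF by 1.62 ± 0.12 on the log2 scale (edgeR FDR 0.000549), the lowest FDR of any member in that comparison.

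Ccnd3 (chr17:47642000-47736632, plus strand) encodes the D-type cyclin best known from blood cells. It had 122 and 101 CPM in the CAF-1 OFF libraries, 70.4 and 62.1 CPM in control, and 158 and 127 CPM in HOXA9 OFF. The libraries of both treated groups lay above both controls, and those of HOXA9 OFF lay above those of CAF-1 OFF. Ccnd3 rose 2.15-fold in HOXA9 OFF (log2 fold change 1.10 ± 0.15 SE, edgeR FDR 0.00353). In CAF-1 OFF it was 1.68-fold above control with a 95% confidence interval of 0.38 to 1.12 on the log2 scale, and did not pass after adjustment (edgeR FDR 0.194, unadjusted p = 0.00198). DESeq2 and the edgeR exact test called this difference, at FDR values of 0.00433 and 0.00288, as did the fit with no expression filter (edgeR FDR 0.000745). Over the other settings its FDR reached 0.223, and without single libraries it ran from 0.211 to 0.774. CAF-1 OFF and HOXA9 OFF differed by -0.35 ± 0.15 (edgeR FDR 0.124, 95% confidence interval -0.72 to 0.01). Exons of Ccnd3 and Bysl share 353 bp on opposite strands, and the strand setting of the counting is not given in the sources used here. Bysl went the other way from Ccnd3 in HOXA9 OFF, at 67.8 ± 3.95 CPM against 84.6 ± 3.59 CPM in control (edgeR FDR 0.057).

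Ccnd1 (chr7:152115836-152125774, minus strand), the D-type cyclin of many adherent cell types, had few reads in comparison. There were 163 and 58 counts in CAF-1 OFF, 156 and 209 counts in control, and 49 and 34 counts in HOXA9 OFF. These equal 8.47 and 2.94, 6.13 and 12.1, and 2.36 and 2.06 CPM, so the CAF-1 OFF libraries differed 2.88-fold and overlapped the controls. Ccnd1 fell 4.09-fold in HOXA9 OFF (log2 fold change -2.03 ± 0.56 SE, edgeR FDR 0.0345). The call was kept without control replicate 1 and lost without control replicate 2 (-1.46, edgeR FDR 0.164), without HOXA9 OFF replicate 1 (-2.14, edgeR FDR 0.121) or without HOXA9 OFF replicate 2 (-1.93, edgeR FDR 0.128). In CAF-1 OFF its difference from control was -0.67 ± 0.53 (edgeR FDR 0.711, 95% confidence interval -1.93 to 0.58). That value was -1.63 without CAF-1 OFF replicate 1, -1.08 without control replicate 1, and -0.09 without either of the other two libraries. CAF-1 OFF stood 1.36 ± 0.56 above HOXA9 OFF (edgeR FDR 0.112), and the difference was 1.95 and called without CAF-1 OFF replicate 2 (edgeR FDR 0.026) but 0.41 without CAF-1 OFF replicate 1 (edgeR FDR 0.587). Exons of Ccnd1 share 818 bp with Oraov1 on the other strand, which stayed between 15.3 and 16.4 CPM in all 6 libraries.

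Levels of different genes were set side by side as CPM per kb of annotated exon. The summed level of the 3 D-type cyclins was 91.6 and 80.8 CPM per kb in control, 92.3 and 78.1 CPM per kb in HOXA9 OFF, and 118 and 115 CPM per kb in CAF-1 OFF. The sum in HOXA9 OFF overlapped control, while its makeup differed. Ccnd2 made up 64.2% and 62.0% of the sum in control, 52.4% and 60.5% in CAF-1 OFF, and 23.6% and 27.0% in HOXA9 OFF. Ccnd3 supplied 34.1% in each control library, 45.7% and 38.8% in CAF-1 OFF, and 75.7% and 72.3% in HOXA9 OFF. The leading D-type cyclin transcript was thus Ccnd2 in control and CAF-1 OFF and Ccnd3 in HOXA9 OFF. Ccnd1 contributed between 0.666% and 3.91% in every library. These shares were not tested and carry no p-value. An exact permutation test of 2 against 2 libraries could not give a p below 0.333. As in any bulk measurement, fewer cells of a type and less RNA per cell cannot be told apart.

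**Figure D3:**
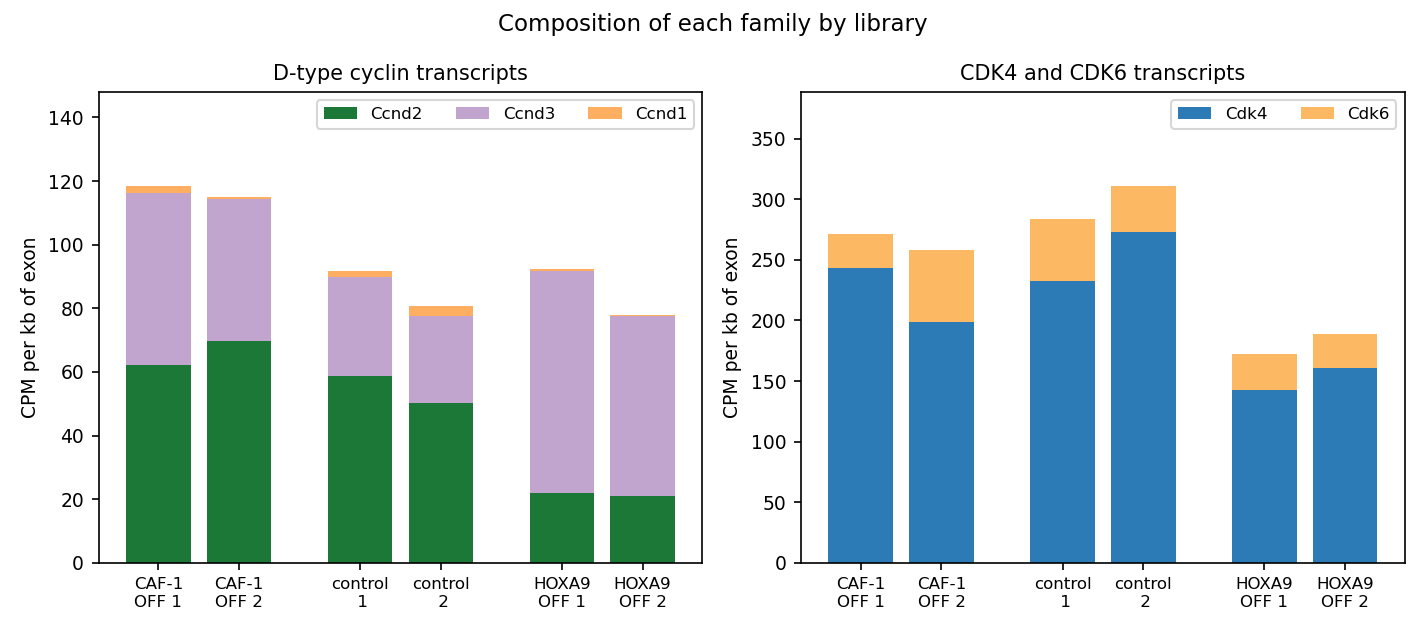
Stacked bars give CPM per kb of exon in each of the 6 libraries, for the D-type cyclins (left) and for Cdk4 and Cdk6 (right). The Ccnd2 segment holds 52.4% to 64.2% of the left-hand bar in CAF-1 OFF and control and 23.6% to 27.0% in HOXA9 OFF. On the right, both HOXA9 OFF bars are the lowest, at 173 and 189 CPM per kb.

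Among the kinases, Cdk4 fell in HOXA9 OFF, whereas Cdk2 and Cdk6 were not called. Cdk6 had a log2 fold change there near that of Cdk4, at -0.62 against -0.74, and the difference between the 2 genes was not tested. Promoter sequence is shown for all 3 kinase genes. The 250 bases before the annotated start are from RefSeq (GRCm38.p6, 5′ to 3′ on the strand of the gene), with capitals for the E-box CACGTG, a site that MYC and related factors bind, and for an E2F site (TTTCCCGC, TTTCGCGC, TTTGCCGC or TTTGGCGC). Both strands were searched, and no hit of one motif overlapped a hit of the other.
Cdk4, chr10:127063285-127063534, plus strand: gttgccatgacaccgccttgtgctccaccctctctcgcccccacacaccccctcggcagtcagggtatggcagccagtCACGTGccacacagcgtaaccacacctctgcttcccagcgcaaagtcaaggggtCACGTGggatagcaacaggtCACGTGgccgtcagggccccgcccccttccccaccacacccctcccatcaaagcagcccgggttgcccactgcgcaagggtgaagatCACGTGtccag
Cdk6, chr5:3343643-3343892, plus strand: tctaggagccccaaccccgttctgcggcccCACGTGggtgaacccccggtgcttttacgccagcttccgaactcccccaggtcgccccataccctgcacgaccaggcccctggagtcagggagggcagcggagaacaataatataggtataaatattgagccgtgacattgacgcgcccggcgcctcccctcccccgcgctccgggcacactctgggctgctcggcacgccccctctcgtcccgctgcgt
Cdk2, chr10:128705052-128705301, minus strand: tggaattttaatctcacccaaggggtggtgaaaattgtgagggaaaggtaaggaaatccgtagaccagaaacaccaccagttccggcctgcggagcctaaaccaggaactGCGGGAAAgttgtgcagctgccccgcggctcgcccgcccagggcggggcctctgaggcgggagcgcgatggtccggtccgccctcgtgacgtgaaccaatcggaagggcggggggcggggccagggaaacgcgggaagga

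The Cdk4 stretch held 4 copies of CACGTG, at -172 to -167, -118 to -113, -98 to -93 and -11 to -6 from the start. At least 4 copies were found in 8 of the 32851 promoter windows of 300 bases in the table (0.0244%), and at least 1 copy in 7.15%. Cdk6 had 1 copy, at -220 to -215. Cdk2 had the E2F site GCGGGAAA, read on the other strand as TTTCCCGC, at -140 to -133, and 2.26% of windows held such a site. In the windows of 7 members given by the table, the other hit was 1 copy of CACGTG in Cdkn2c, at 35 to 40 after the start. A match describes letters and was not tested as a binding site, and the search for CACGTG was added after the expression values were seen. Ccnd1, Ccnd2 and Rb1 were not searched.

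Cdk4 (chr10:126500590-126504976, plus strand) was the most abundant member per kb in every group. It had 790 and 648 CPM in the CAF-1 OFF libraries, 757 and 888 CPM in control, and 464 and 522 CPM in HOXA9 OFF. Both HOXA9 OFF libraries were below the other 4, whereas CAF-1 OFF and control overlapped. Cdk4 fell 1.67-fold in HOXA9 OFF (log2 fold change -0.74 ± 0.14 SE, edgeR FDR 0.00983). The call was lost without control replicate 2 (-0.62, edgeR FDR 0.0676) or HOXA9 OFF replicate 1 (-0.66, edgeR FDR 0.0674). In CAF-1 OFF the difference from control was -0.19 ± 0.14 (edgeR FDR 0.681, 95% confidence interval -0.52 to 0.14). CAF-1 OFF stood 1.46-fold above HOXA9 OFF, just under the fold required (log2 fold change 0.54 ± 0.14, edgeR FDR 0.0277), and 0.70 above it without CAF-1 OFF replicate 2, which was called (edgeR FDR 0.0195). Without CAF-1 OFF replicate 1 that difference was 0.39 (edgeR FDR 0.105). Its exons share 604 bp with Tspan31 on the other strand, which was less abundant at 70.4 ± 6.53 CPM in HOXA9 OFF and 61.6 ± 0.469 CPM in control.

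Cdk6 (chr5:3343893-3523218, plus strand) encodes the partner kinase prominent in blood progenitors. It had 106 and 222 CPM in the CAF-1 OFF libraries, 189 and 141 CPM in control, and 111 and 105 CPM in HOXA9 OFF. The CAF-1 OFF libraries differed 2.09-fold and enclosed both controls, so the mean of 164 ± 81.7 CPM says little about that group. Its difference from control was -0.01 ± 0.32 in CAF-1 OFF (edgeR FDR 0.997, 95% confidence interval -0.77 to 0.75). That difference was 0.42 without CAF-1 OFF replicate 1 and -0.62 without CAF-1 OFF replicate 2. In HOXA9 OFF both libraries lay below both controls, but the log2 fold change of -0.62 ± 0.32 did not pass (edgeR FDR 0.193). It was called with no filter (edgeR FDR 0.00554) and with only the 4 libraries compared (edgeR FDR 0.0254). CAF-1 OFF and HOXA9 OFF differed by 0.61 ± 0.32 (edgeR FDR 0.199), by 1.04 without CAF-1 OFF replicate 1, which was called (edgeR FDR 0.0141), and by 0 without CAF-1 OFF replicate 2 (edgeR FDR 0.999). Cdk4 supplied 77.1% to 89.5% of the summed Cdk4 and Cdk6 level per kb in every library (84.2% to 93.1% by the longest transcripts), with no separation of the groups.

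Cdk2 (chr10:128134995-128142107, minus strand), the kinase that works with cyclin E and cyclin A, had 174 and 155 CPM in the CAF-1 OFF libraries, 177 and 172 CPM in control, and 178 and 182 CPM in HOXA9 OFF. The 6 libraries lay within a narrow band. The difference from control was -0.09 ± 0.10 in CAF-1 OFF (95% confidence interval -0.32 to 0.15) and 0.04 ± 0.10 in HOXA9 OFF (95% confidence interval -0.20 to 0.28), with edgeR FDR values of 0.806 and 0.789. These intervals leave out a 1.5-fold change in either direction. Scaling by library size alone turned the value in HOXA9 OFF to -0.04.

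All 3 inhibitor genes among the members had higher mean levels in both treated groups than in control. The treated groups were set against the same control libraries, and how many of all genes do the same was not counted. Of these inhibitor genes edgeR called only Cdkn2d, in HOXA9 OFF against control. Cdkn2a, an inhibitor gene outside the members, had its highest mean in control (256 ± 9.95 CPM). Cdkn2c (chr4:109333481-109339794, minus strand) had 79.7 and 80.2 CPM in the CAF-1 OFF libraries, 48.5 and 45.9 CPM in control, and 61.6 and 52.7 CPM in HOXA9 OFF. CAF-1 OFF held the 2 highest libraries and control the 2 lowest. The level in CAF-1 OFF was 1.69-fold that in control, with a 95% confidence interval of 0.48 to 1.04 on the log2 scale, and it did not pass after adjustment (edgeR FDR 0.128, unadjusted p = 0.00036). DESeq2, the exact test and the fit with no filter called it, at FDR values of 0.000148, 0.000103 and 0.00077. Over the other settings the FDR reached 0.163, and without single libraries it ran from 0.213 to 0.665 with log2 fold changes of 0.73 to 0.81. In HOXA9 OFF the difference from control was 0.28 ± 0.12 (edgeR FDR 0.118). CAF-1 OFF exceeded HOXA9 OFF 1.40-fold at an edgeR FDR of 0.022, which was under the fold required, and by 0.61 on the log2 scale without HOXA9 OFF replicate 1, which was called (edgeR FDR 0.0483), but by 0.37 without HOXA9 OFF replicate 2 (edgeR FDR 0.148).

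Cdkn1b (chr6:134870419-134875531, plus strand) had 34.6 and 32.5 CPM in the CAF-1 OFF libraries, 26 and 28.6 CPM in control, and 39.4 and 39.2 CPM in HOXA9 OFF. The 3 groups did not overlap, with HOXA9 OFF highest and control lowest. HOXA9 OFF was 1.44-fold above control (log2 fold change 0.53 ± 0.12 SE), which had an edgeR FDR of 0.0172 but fell short of the fold required. The difference of CAF-1 OFF from control was 0.30 ± 0.12 (edgeR FDR 0.443), and that from HOXA9 OFF was -0.23 ± 0.12 (edgeR FDR 0.185).

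Cdkn2d (chr9:21092907-21095653, minus strand) was scarce, with 27 and 22 counts in CAF-1 OFF, 28 and 12 counts in control, and 56 and 38 counts in HOXA9 OFF. These equal 1.4 and 1.11, 1.1 and 0.697, and 2.7 and 2.3 CPM, so both HOXA9 OFF libraries were the highest. Cdkn2d rose 2.74-fold in HOXA9 OFF (log2 fold change 1.45 ± 0.39 SE, edgeR FDR 0.0324). The call was lost without control replicate 1 (1.83, edgeR FDR 0.0706), control replicate 2 (1.18, edgeR FDR 0.179), HOXA9 OFF replicate 1 (1.33, edgeR FDR 0.161) or HOXA9 OFF replicate 2 (1.57, edgeR FDR 0.0961). In CAF-1 OFF the difference from control was 0.46 ± 0.40 (edgeR FDR 0.737, 95% confidence interval -0.49 to 1.42), and HOXA9 OFF and CAF-1 OFF differed at an edgeR FDR of 0.0967.

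Rb1 (chr14:73583480-73725629, minus strand), whose product holds E2F factors in check, had 50.3 and 64.3 CPM in the CAF-1 OFF libraries, 52.8 and 48.6 CPM in control, and 79.4 and 87.4 CPM in HOXA9 OFF. HOXA9 OFF held the highest libraries, and CAF-1 OFF and control overlapped. Rb1 rose 1.64-fold in HOXA9 OFF (log2 fold change 0.72 ± 0.14 SE, edgeR FDR 0.012). The call was lost without control replicate 2 (0.66, edgeR FDR 0.0743) or HOXA9 OFF replicate 2 (0.65, edgeR FDR 0.0632). CAF-1 OFF differed from control by 0.17 ± 0.14 (edgeR FDR 0.726) and from HOXA9 OFF by -0.54 ± 0.14 (edgeR FDR 0.031, 1.46-fold, under the fold required), and the last difference was -0.71 and called without CAF-1 OFF replicate 2 (edgeR FDR 0.017) but -0.38 without CAF-1 OFF replicate 1 (edgeR FDR 0.0967). Exons of Rb1 share 896 bp with Rcbtb2 and Lpar6 on the other strand, and both of these rose in HOXA9 OFF, with log2 fold changes of 1.01 (edgeR FDR 0.00224) and 2.49 (edgeR FDR 0.000561). Their part in the Rb1 counts was not tested.

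Ranked per kb, Cdk4 led in every group, at 253 CPM per kb in control (401 CPM per kb by its longest transcript), 221 CPM per kb in CAF-1 OFF and 152 CPM per kb in HOXA9 OFF, and Cdk2 followed at 67.7 to 73.9 CPM per kb. In control the order went on with Ccnd2, Cdk6, Ccnd3, Cdkn2c, Rb1, Cdkn1b, Ccnd1 and Cdkn2d, and the libraries of each neighbouring pair were separate except for Ccnd2 and Cdk6. CAF-1 OFF had Ccnd3 above Cdk6, and the libraries overlapped for Cdk2 with Ccnd2, Ccnd3 with Cdk6, Cdk6 with Cdkn2c, and Ccnd1 with Cdkn2d. In HOXA9 OFF Ccnd3 took the third place, at 63.2 CPM per kb, and Ccnd2 dropped behind Cdk6 to 21.4 CPM per kb, beside Cdkn2c at 21.3 CPM per kb, with overlapping libraries. Cdkn2d there stood above Ccnd1, at 1.97 against 0.577 CPM per kb. Cdkn2c led the 3 inhibitors among the members in every group, at 29.8 CPM per kb in CAF-1 OFF and 17.6 CPM per kb in control.

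The other genes of the pathway were taken from 4 lists of 33 genes in all, of which 31 were tested. In CAF-1 OFF against control edgeR called 0 of them (0.0321% of all genes), with 3 at an unadjusted p under 0.05 (10.7% of all genes). DESeq2 and the exact test also called 0 of them. Their median log2 fold change was 0.04. In HOXA9 OFF against control 2 rose and 3 fell, with a median of -0.18, beside 22% called among all genes. In CAF-1 OFF against HOXA9 OFF 3 were higher in CAF-1 OFF and 2 lower, beside 22.1% called among all genes. These 2 comparisons share the HOXA9 OFF libraries, and the genes called in them were E2f2, Rbl2, E2f5, Myc and Cdkn1a.

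E2f2, an E2F activator gene, had 38 and 40.1 CPM in the CAF-1 OFF libraries, 27.1 and 27 CPM in control, and 67.6 and 65.5 CPM in HOXA9 OFF. It rose in HOXA9 OFF (log2 fold change 1.30 ± 0.11 SE, edgeR FDR 0.000634), and CAF-1 OFF lay below HOXA9 OFF by -0.77 (edgeR FDR 0.00326) and apart from control without a call (0.53, edgeR FDR 0.185). Rbl2, which encodes the pocket protein p130 of resting cells, rose from 43.2 ± 2.41 to 67.3 ± 1.64 CPM in HOXA9 OFF (edgeR FDR 0.0125), in the same direction as Rb1. E2f5, whose product works with p130 as a repressor, fell from 7.98 ± 0.442 to 3.62 ± 0.621 CPM (edgeR FDR 0.0117). Myc, a growth factor response gene known to act upstream of D-type cyclins and Cdk4, fell from 566 ± 23 to 301 ± 6.92 CPM in HOXA9 OFF (log2 fold change -0.91 ± 0.09 SE, edgeR FDR 0.00139). It stood at 519 ± 18.7 CPM in CAF-1 OFF, above HOXA9 OFF (edgeR FDR 0.00226) and not called against control (edgeR FDR 0.694). Cdkn1a, the gene of p21, fell in HOXA9 OFF from 33 ± 10.2 to 18.5 ± 4.07 CPM (edgeR FDR 0.0472), opposite to the inhibitor Cdkn2d.

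Among the genes of cyclins E and A, Ccne1 stayed between 39.6 and 52.7 CPM in all libraries. Ccne2 had 73.8 ± 2.03 CPM in CAF-1 OFF against 56.2 ± 1.24 CPM in control (edgeR FDR 0.273) and 51 ± 1.76 CPM in HOXA9 OFF (edgeR FDR 0.336 against control). Ccna1 had 0 counts in all 6 libraries, which allows up to 0.119 to 0.179 CPM per library by counting error. Of the further inhibitor genes, Cdkn2a was abundant, at 249 ± 47.2 CPM in CAF-1 OFF, 256 ± 9.95 CPM in control and 237 ± 2.01 CPM in HOXA9 OFF, with no call. Cdkn2b had 1 to 5 counts per library and was not tested, and Cdkn1c had 0 to 16 counts.

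The targets of E2F that carry cells into S phase were followed with 18 genes, among them genes for replication licensing, DNA synthesis and nucleotide supply. In CAF-1 OFF against control edgeR, DESeq2 and the exact test each called 0 of 18, with 2 at an unadjusted p under 0.05 (10.7% of all genes), and the median log2 fold change was 0. In HOXA9 OFF the median was -0.18, and the values ran from -0.61 to 0.03. Of the 18 genes 1 was called, beside 22% of all genes. It was Tyms, the thymidylate synthase gene, which fell from 206 ± 11.3 to 135 ± 4.12 CPM (log2 fold change -0.61 ± 0.10 SE, edgeR FDR 0.00675). Set against HOXA9 OFF, CAF-1 OFF had 2 of 18 called, beside 22.1% of all genes. It stood higher at Rrm2, a subunit of ribonucleotide reductase, with 562 ± 30.4 against 353 ± 22.6 CPM (edgeR FDR 0.00447), and at Cdc6, which loads the replicative helicase, with 106 ± 3.11 against 69.6 ± 1.5 CPM (edgeR FDR 0.00554). Control lay between these, at 385 ± 2.28 CPM for Rrm2 and 86.9 ± 2.56 CPM for Cdc6.

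**Figure D4:**
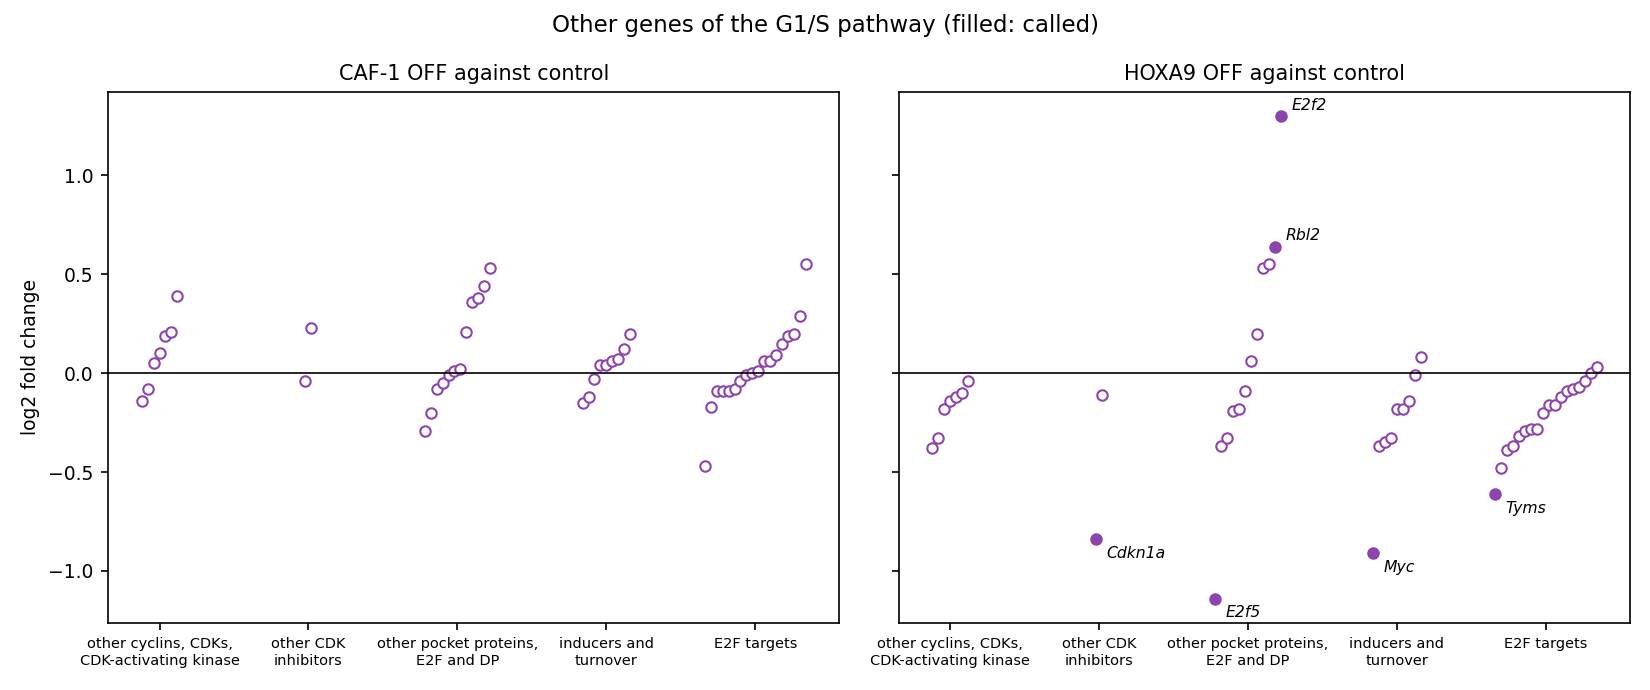
Log2 fold changes (vertical axis) of the other pathway genes and of 18 E2F targets, grouped by list along the horizontal axis. The left panel sets CAF-1 OFF and the right panel HOXA9 OFF against control. Each point is 1 gene, and filled points with names were called. The left panel has 0 filled points and the right has 6, of which E2f2 and Rbl2 lie above 0. Cdkn1c, with 0 to 16 counts per library, is not drawn.

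Lineage markers also differed between the groups. In HOXA9 OFF against control edgeR called 13% of all genes higher and 8.97% lower. It called 7 of 8 maturing neutrophil markers higher, with a median log2 fold change of 5.56. Of the 7 monocyte and macrophage markers tested, 5 were called higher and 1 lower. The monocyte list summed to 1830 to 2910 CPM in HOXA9 OFF, 1490 to 1830 CPM in CAF-1 OFF, and 1450 to 1610 CPM in control. Of the progenitor markers, 4 of 10 fell and 2 rose in HOXA9 OFF. In CAF-1 OFF against control edgeR called 0 of the 8 neutrophil markers, with 4 at an unadjusted p under 0.05 (10.7% of all genes). DESeq2 and the exact test each called 3 (S100a8, S100a9 and Mmp8), beside 191 and 243 of all genes. Mmp8 made up most of that list in CAF-1 OFF, at 481 ± 211 CPM.

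Markers of other lineages were low. Erythroid and megakaryocyte markers summed to 37.1 to 72 CPM in CAF-1 OFF, 26.6 to 27.3 CPM in control and 77.2 to 81.6 CPM in HOXA9 OFF, and the globin genes Hbb-b1 and Hba-a1 had at most 3 counts in each library. Of these 9 markers 6 were tested. In HOXA9 OFF against control edgeR called 2 of them higher, Gata1 and Itga2b, beside 13% of all genes. Between CAF-1 OFF and control edgeR called 0, with 2 at an unadjusted p under 0.05 (10.7% of all genes). DESeq2 and the exact test each called 1 higher, Pf4, which stood 4.27-fold above control (edgeR FDR 0.199). Lymphoid markers summed to 33.5 to 60.3 CPM, with Cd3e and Cd3g at 0 counts in all libraries. Stromal markers summed to 0.675 to 1.62 CPM, with Lum at 0 counts and 4 of the 6 genes at or under 3 counts in every library. The part of the lineage changes in the values of the G1 genes was not tested.

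Of the 10 members, Ccnd1 had the widest spread of group means, 1.92 on the log2 CPM scale. Among 9614 other genes with a mean of at least 5 CPM, the 5 whose log2 CPM followed it most closely over the 6 libraries were Mtx1 (Pearson r 0.9991), Bccip (0.9979), Cox5a (0.9961), Polr2c (0.996) and Eif6 (0.9959). These correlations describe 6 points that share libraries and scaling. The genes moved far less than Ccnd1, as Mtx1 ran from 59.8 to 83.9 CPM and Eif6 from 205 to 296 CPM, while Ccnd1 ran from 2.06 to 12.1 CPM. All 5 had, like Ccnd1, their highest library in control replicate 2 and lower values in CAF-1 OFF replicate 2 than in replicate 1. This shared order follows from picking them by correlation and is no separate result.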

How the data were processed

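RNA-seq libraries were made from total RNA with a directional kit and sequenced on an Illumina instrument. Per the labels and the methods of the study, the authors used STAR for alignment to mm9 and HTSeq-count for counting. Raw counts per gene symbol were deposited, and the gene annotation, strand setting and overlap mode of the counting are not given in the sources used here. Tally lines for reads assigned to no gene were left out of library sizes and tests (5.95 to 8.26 reads without a feature and 3 to 3.28 ambiguous reads per 100 assigned reads).

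The tests used edgeR 4.0.16 under R 4.3.3 (filterByExpr, scaling by TMM, the trimmed mean of M-values, with factors of 0.954 to 1.03, quasi-likelihood test with 1 mean per group over all 6 libraries, Benjamini-Hochberg adjustment over 12460 genes). The call rule of 1.5-fold and FDR under 0.05 follows the methods of the study. Standard errors came from the quasi-likelihood F statistic. Alternatives were DESeq2 1.42.0, the edgeR exact test, other scalings, filters, cutoffs and sets of libraries, and a replicate block. Lengths, positions and overlaps are from the GENCODE annotation of NCBIM37. Promoter windows are RefSeq entries of GRCm38.p6, matched by symbol for 7 of the 10 members.

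The members and gene lists were chosen with earlier results of these data known. All members are named, as are, per comparison, the 3 largest increases and decreases among called list genes, together with Cdkn1a, Cdkn2a, Cdkn2b, Ccne1, Ccne2 and Myc in any case, and the 5 genes most correlated with the member of widest range. Other genes were named after their values were seen, among them overlapping genes. Of the list symbols, Spi1 and Adgre1 were counted as Sfpi1 and Emr1. Replicate libraries differed beyond sampling noise (chi-square per degree of freedom 18.2 to 24.4). Floors of 3 counts cover counting error only, as PCR reads are not independent molecules.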

Additional observations from a re-analysis of the deposited data

How the results depend on the processing

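With 2 libraries per group, small differences of Ccnd1, Cdkn2d and Cdk6 between CAF-1 OFF and control were not detectable, as their confidence intervals were wide. Where 1 library was left in a group, it was assumed to vary like the other groups. In CAF-1 OFF against control the number of genes called (4 as reported) was 191 with DESeq2, 243 with the exact test, 378 with no filter, 9 with the 4 libraries compared and 0 at 2-fold with FDR under 0.01. It ranged from 0 to 8 without single libraries (8 without CAF-1 OFF replicate 1, 1 without control replicate 2, and 0 without CAF-1 OFF replicate 2 or control replicate 1). Members called (0 as reported) numbered 2, Ccnd3 and Cdkn2c, with DESeq2, the exact test and no filter, and stayed at 0 without any single library. In HOXA9 OFF against control the cutoff of 2-fold with FDR under 0.01 left 987 genes and 2 members, Ccnd2 and Ccnd3. Leaving out single libraries gave 1602 to 2128 genes (1602 without control replicate 2, 1750 without HOXA9 OFF replicate 1) and 2 to 5 members. In CAF-1 OFF against HOXA9 OFF the strict cutoff left 948 genes, and single libraries left out gave 1711 to 2718 genes (1711 without HOXA9 OFF replicate 1) and 1 to 4 members. Members called there numbered 2 with library size alone (Cdk4 added), 3 with no filter (Ccnd1 and Cdk6 added) and 4 with no fold minimum. Signs turned for Cdk2, to -0.04 in HOXA9 OFF against control with library size alone and to 0.01 in CAF-1 OFF against control without CAF-1 OFF replicate 2 (-0.17 without replicate 1), and for Cdk6 in CAF-1 OFF against control, to 0.42 without CAF-1 OFF replicate 1 and 0.21 without control replicate 1 (-0.62 without CAF-1 OFF replicate 2). Cdk6 was called in HOXA9 OFF against control with no filter and with the 4 libraries compared, at -0.62 in both. The longest transcript in place of all exons moved the control levels of Cdk4 to 401, Cdkn2c to 19.1 and Rb1 to 10.9 CPM per kb. Ccnd2 in both comparisons with HOXA9 OFF, and Ccnd3 in HOXA9 OFF against control, were called in every alternative fit at the same cutoffs. The filter at a mean of 5 CPM removed Cdkn2d. The causes of these shifts were not tested.

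Replicate numbers were not taken to pair the libraries, since the labels do not say that they do and same-numbered deviations correlated with different signs, at -0.178 for CAF-1 OFF and control, 0.033 for CAF-1 OFF and HOXA9 OFF, and 0.456 for control and HOXA9 OFF. With the replicate block, genes called numbered 2 in CAF-1 OFF against control, 2680 in HOXA9 OFF against control and 2684 in CAF-1 OFF against HOXA9 OFF, and members called numbered 0, 5 and 1. The member lost was Ccnd1 in HOXA9 OFF against control (-2.07, edgeR FDR 0.0528). A block with crossed numbers on 4 libraries, chosen after these correlations were seen, called 89 genes and 1 member in CAF-1 OFF against control, the member being Cdkn2c (0.76, edgeR FDR 0.0407).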
